A study of Mus musculus with 48 samples.

Results

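Gut RNA of mice that had received faecal transplants from donors on a ketogenic diet (KD) was compared with that of mice that had received them from donors on normal chow (NC). Tissue of both groups was taken at ZT12, the zeitgeber time at which the lights go off. The comparison holds 8 of the 48 arrays of the series, 4 of KD and 4 of NC recipients. They were chosen by their labels alone (tissue Gut (DI), donor diet and time), and no measured value entered the choice. The question was whether the diet of the donor, carried over as transplanted microbiota, was followed by a difference in the recipient's gut. The study also profiled liver, donors on a high-fat diet (HF) and tissue from ZT0, the time of lights on. Recipients in all groups were fed a normal diet, and the mice were male, age-matched C57BL/6J kept on a light and dark cycle. Germ-free mice are named among the animals but are tied to no group, and the labels do not describe how recipients were prepared for the transplant. Arrays are named by the number in their titles: KD 8, 10, 12 and 13, and NC 9, 10, 11 and 12. Nothing but titles and labels says that they come from separate animals, so p-values may measure technical spread only.

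The intestinal wall holds both epithelium and lymphoid tissue. Its B cells gather in follicles, in Peyer's patches and in smaller isolated follicles, where stromal cells attract them with the chemokine CXCL13 and a specialised epithelium with M cells samples bacteria. The epithelium responds to bacteria in another way: it secretes antimicrobial lectins of the REG3 family and makes hydrogen peroxide with the dual oxidase DUOX2. Both systems are known to depend on the microbiota.

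Markers of the labelled tissue were bright in every array. The mean of the absorptive enterocyte list, in units of log2(intensity + 16), lay between 11.92 and 12.15 in KD arrays and between 11.78 and 12.16 in NC arrays. Fabp6, the ileal bile acid binding protein, averaged 13.34 ± 0.07 in KD arrays and 13.22 ± 0.12 in NC arrays (SD, n = 4 each), and the list of ileal markers as a whole lay between 10.92 and 11.30 in KD arrays and between 10.86 and 11.18 in NC arrays. Smooth muscle markers lay between 10.07 and 10.24 in KD arrays and between 10.15 and 10.21 in NC arrays. None of these ranges stood apart. All values below are on this log2 scale, on which differences understate the change of dim genes, and every difference is KD minus NC.

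Lymphoid RNA stood apart between the groups. The mean of 22 B cell genes was 6.36, 6.49, 6.53 and 6.51 in KD arrays 8, 10, 12 and 13, against 8.14, 8.99, 8.64 and 9.08 in NC arrays 9, 10, 11 and 12. The same mean also varied widely within groups elsewhere in the gut set. Of the other 16 gut arrays, 7 had a mean over 8 and 9 had a mean under 7, with none between 6.70 and 8.08. The high ones were HF array 10 at ZT12 (8.20), HF array 1 at ZT0 (8.86), KD arrays 1, 4 and 5 at ZT0 (8.76, 8.87 and 8.08), and NC arrays 1 and 3 at ZT0 (8.40 and 9.05). KD array 6 at ZT0 had 6.65, and NC arrays 4 and 6 at ZT0 had 6.67 and 6.65. In bulk tissue, fewer lymphoid cells and less RNA per lymphoid cell cannot be told apart, and which piece of gut, with or without a follicle, went into each sample is not stated in the labels. The part of such sampling in the results below was not tested.

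**Figure D1:**
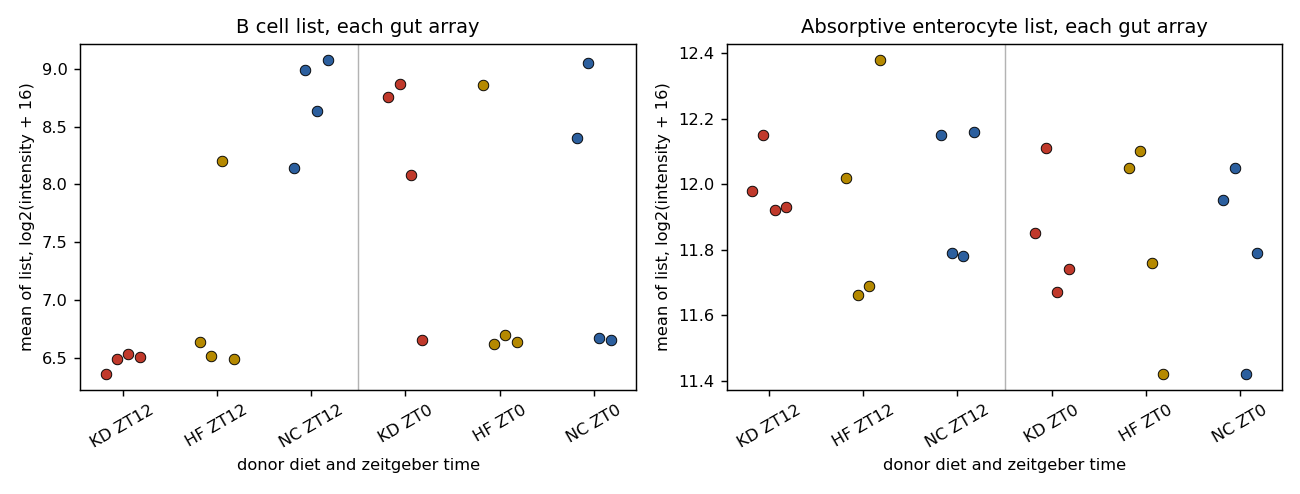
Mean of the B cell list (left) and of the absorptive enterocyte list (right) in each of the 24 gut arrays, in log2(intensity + 16), by donor diet and zeitgeber time. Each point is 1 array. All 4 KD arrays at ZT12 lie at or below 6.53 for B cell genes and all 4 NC arrays at ZT12 at or above 8.14, while the 3 groups at ZT0 each hold arrays at both levels; enterocyte means overlap.

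Of 20702 genes, 453 passed an adjusted p of 0.05 in limma (Benjamini-Hochberg over all genes), which is 2.19% of those tested. Most were lower: 387 fell in KD recipients (1.87%) and 66 rose (0.319%). All 4 KD arrays lay below all 4 NC arrays for 892 genes (4.31%) and above them for 778 (3.76%). Array totals are not counts here, so depth is not defined; array medians lay close together and the number of arrays limits the precision. The threshold was sensitive to single arrays: the 453 genes became 270 without KD array 8, 290 without KD array 10, 288 without NC array 12 and 298 without NC array 10. With all 24 gut arrays in 1 fit, 1 gene passed (0.00483%) and 1968 had an unadjusted p under 0.05.

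B cell genes carried the deepest decreases. All 22 fell, against 1.87% of all genes, with a median of -2.24 against 0.015 over all genes. Cd79a, a signalling chain of the B cell receptor, read 5.35, 6.00, 5.81 and 5.95 in KD arrays 8, 10, 12 and 13, against 8.85, 10.12, 9.65 and 10.26 in NC arrays 9, 10, 11 and 12. The groups were separated by nearly 3 log2 units, and the difference was -3.94 ± 0.26 (SE, adjusted p = 1.51e-05), or 15.4-fold lower. Ms4a1, which encodes the B cell surface protein CD20, read 5.15, 5.53, 5.31 and 4.61 in KD arrays, against 8.37, 9.34, 9.06 and 9.34 in NC arrays. Here too no array came near the other group, and the difference was -3.88 ± 0.22 (adjusted p = 8.08e-06). Cr2, the complement receptor of B cells and follicular dendritic cells, fell by 3.60 ± 0.24 (adjusted p = 1.79e-05), to between 5.49 and 5.97 in KD arrays, against 8.44 to 9.79 in NC arrays.

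The B cell decrease covered surface receptors, signalling adaptors and transcription factors alike. Among receptors and surface proteins, Fcer2a (CD23, the low-affinity IgE receptor) differed by -3.50, Cxcr5 (the receptor for CXCL13) by -3.30, Cd37 by -3.01, Fcmr (the IgM Fc receptor) by -2.89, Cd79b by -2.49, Cd22 (an inhibitory lectin) by -2.14, Cd72 by -1.88, Fcrl1 by -1.69 and Tnfrsf13c (the BAFF receptor) by -1.01. Among signalling proteins, the scaffold gene Bank1 differed by -3.37, the adaptor gene Blnk by -0.92 and the kinase gene Blk by -0.76. Among transcriptional regulators, Pax5, which keeps B cell identity, differed by -2.34, Ebf1 by -1.61, the octamer coactivator gene Pou2af1 by -1.59 and Bcl11a by -0.56. Ltb (lymphotoxin beta) and Fcrla completed the list, at -1.71 and -0.62. In the fit of all 24 gut arrays 0 of the 22 passed (adjusted p = 0.111 for Cd79a), while all 22 had an unadjusted p under 0.05. In the fit of the 8 arrays, between 20 and 22 of the 22 passed whichever array was left out. Bcl11a did not pass without KD array 8, 10 or 13 or NC array 10, 11 or 12 (adjusted p up to 0.12), and Fcrla without KD array 8, 12 or 13 or NC array 10, 11 or 12 (up to 0.128).

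Genes of more mature or activated B cells moved less. Of 8 germinal centre genes 2 fell, beside 1.87% of all genes: Il21r, the interleukin 21 receptor, by 0.97 ± 0.12 (adjusted p = 0.000915), and Bcl6, the germinal centre repressor, by 0.53 ± 0.12 (adjusted p = 0.0376). Bcl6 did not pass without KD array 8, 12 or 13 or NC array 10, 11 or 12, with adjusted p up to 0.122. Of 12 plasma cell genes, 1 fell, Irf4 (-1.44 ± 0.14, adjusted p = 0.000206), which acts in activated B cells as well as in plasma cells. The antibody joining chain gene Jchain, at 10.01 ± 0.27 in KD arrays and 10.48 ± 0.37 in NC arrays, did not pass (adjusted p = 0.269), nor did Mzb1 at -0.60 ± 0.14 (adjusted p = 0.0501). Of 14 immunoglobulin genes and segments measured, 12 had a difference below 0, beside 9194 of all 20702 genes. The 14 lay between -1.76 and 0.96, and 1 fell, Ighg (-0.53, adjusted p = 0.0051). Immunoglobulin segments share sequence, so that single probes may read several of them. The bright kappa chain cluster Igk averaged 11.42 ± 0.77 in KD arrays and 11.35 ± 0.68 in NC arrays and the groups overlapped.

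**Figure D2:**
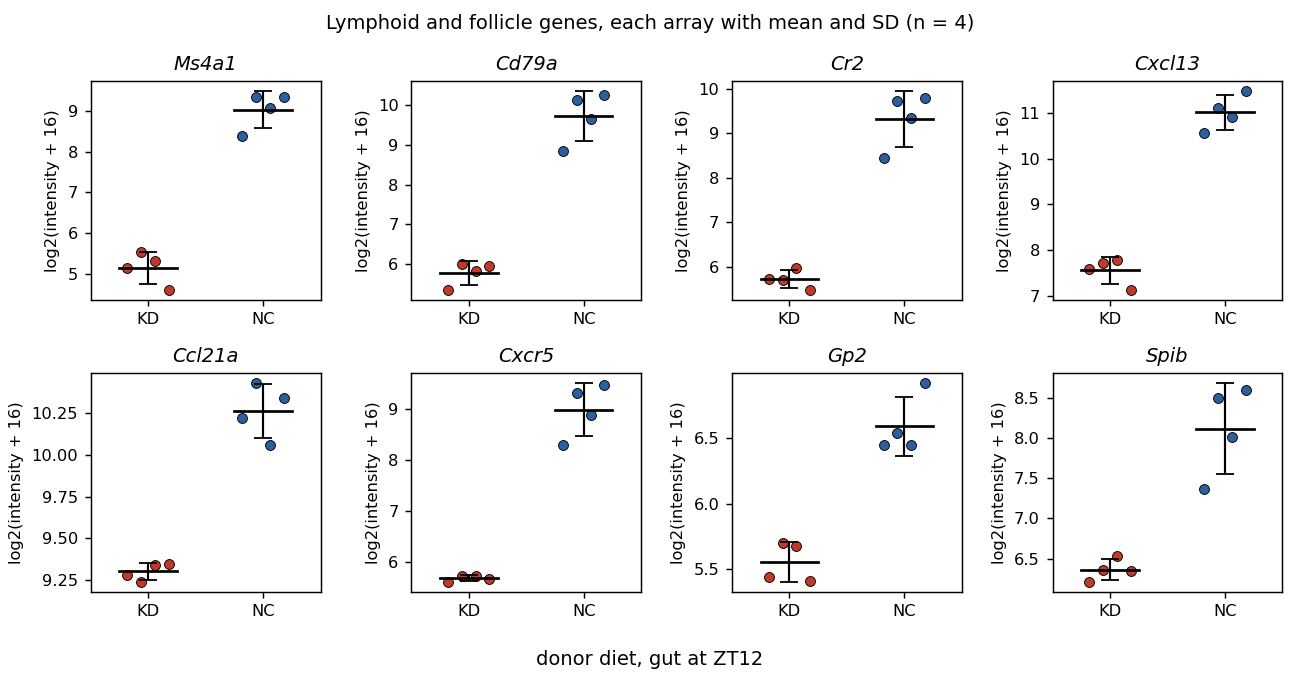
Level in log2(intensity + 16) of 8 lymphoid and follicle genes in KD (left) and NC (right) gut arrays at ZT12; points are arrays, lines are means and bars are SD (n = 4). In each panel all 4 KD arrays lie below all 4 NC arrays, as for Ms4a1, with a highest KD value of 5.53 and a lowest NC value of 8.37.

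Of 16 genes of follicle stroma and lymphocyte homing, 9 fell, beside 1.87% of all genes, with none higher and a list median of -0.47. Ltb is among the 9 and is also counted in the B cell list. Cxcl13, the chemokine that draws B cells into follicles, read 7.59, 7.71, 7.78 and 7.13 in KD arrays 8, 10, 12 and 13, against 10.57, 11.12, 10.91 and 11.49 in NC arrays 9, 10, 11 and 12. The gap between the groups was larger than the range within either, and Cxcl13 fell by 3.47 ± 0.18 (adjusted p = 8.08e-06), or 11.1-fold. Ccl21a, a chemokine that recruits naive lymphocytes through CCR7, read 9.28, 9.24, 9.34 and 9.35 in KD arrays and 10.22, 10.43, 10.06 and 10.34 in NC arrays, a difference of -0.96 ± 0.08 (adjusted p = 6.56e-05). Madcam1, the vascular address for lymphocytes homing to the gut, fell by 0.94 ± 0.12 (adjusted p = 0.00104). Mfge8, made by follicular dendritic cells, differed by -1.502 ± 0.17, and the chemokine receptor gene Ccr6 by -1.19 ± 0.18. Madcam1 and Ccr6 were named after their values were seen, and no result without single arrays is given for them. Clu (clusterin), which is also expressed by follicular dendritic cells, fell by 2.66 ± 0.20 (adjusted p = 2.6e-05). Ccl19 (-0.44), Lta (-0.55) and Ccl20 (-0.39) passed too. Each of them lost the threshold when some arrays were left out: Ccl19 without KD array 8 (adjusted p = 0.0517), Lta without any 1 KD array or NC array 10 or 11 (up to 0.124), and Ccl20 without KD array 8, 10 or 13 or NC array 9, 10 or 12 (up to 0.135). The epithelial chemokine gene Ccl25, which guides lymphocytes to the small intestine, was 12.18 in KD arrays and 12.12 in NC arrays and did not pass (adjusted p = 0.721).

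T cell genes moved in part. Of 21, 6 fell, beside 1.87% of all genes, none rose, and the list median was -0.295, against 0.015 over all genes. Cd2, an adhesion molecule of T and other lymphocytes, read 5.98, 5.70, 5.89 and 5.69 in KD arrays 8, 10, 12 and 13, against 7.10, 7.74, 7.31 and 7.76 in NC arrays 9, 10, 11 and 12. The groups did not overlap, and Cd2 fell by 1.66 ± 0.14 (adjusted p = 6.73e-05). Markers closer to T cells moved by less: Cd4 fell by 0.52 ± 0.09, the adaptor gene Lat by 0.53 ± 0.09, Il7r by 0.46 ± 0.10 and the transcription factor gene Lef1 by 0.34 ± 0.08. Of these, Lat kept its call whichever array was left out. Cd4 did not without KD array 8 (adjusted p = 0.0528), Il7r without KD array 8, 10 or 13 or NC array 10 or 11 (up to 0.101), and Lef1 without KD array 8, 12 or 13 or NC array 10, 11 or 12 (up to 0.119). Cd3e, a chain of the T cell receptor complex, was 7.57 ± 0.18 in KD arrays and 7.91 ± 0.25 in NC arrays, with overlapping arrays and an adjusted p of 0.245.

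Intraepithelial and cytotoxic lymphocyte genes did not follow. Of 16, 1 fell, beside 1.87% of all genes: Cd8b1 (-0.35 ± 0.07, adjusted p = 0.0239). It lost the threshold without KD array 8, 12 or 13 or NC array 11 or 12 (up to 0.0778). The list median was 0.068, against 0.015 over all genes. Gzma, a granzyme of cytotoxic cells, read between 6.93 and 8.14 in KD arrays and between 6.57 and 6.93 in NC arrays (0.74 ± 0.22, adjusted p = 0.148), and Gzmb read between 6.47 and 7.20 in KD arrays and between 6.10 and 6.61 in NC arrays (adjusted p = 0.206). Of the 8 T cell receptor segments measured, 0 passed in limma. Innate lymphoid (8), macrophage and dendritic cell (18), and granulocyte and mast cell (12) genes had 0 called in limma. In those 3 lists the medians were -0.017, -0.119 and 0.078.

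MHC class II genes, which present peptides to CD4 T cells, moved in part. Of 11 measured, 4 fell, beside 1.87% of all genes: H2-Eb2 by 1.78 ± 0.18 (adjusted p = 0.00022), H2-Oa by 1.75 ± 0.21 (adjusted p = 0.000775), H2-DMb2 by 1.42 ± 0.30 (adjusted p = 0.0332) and Ciita, the master coactivator of class II genes, by 1.01 ± 0.15 (adjusted p = 0.00322). H2-Oa, part of a B cell modulator of peptide loading, read 6.43, 6.53, 6.64 and 6.58 in KD arrays 8, 10, 12 and 13, against 7.74, 8.78, 7.89 and 8.74 in NC arrays 9, 10, 11 and 12. H2-DMb2 did not pass without KD array 8, 10 or 13 or NC array 10, 11 or 12 (adjusted p up to 0.0991). The classical chains did not pass and their arrays overlapped: H2-Aa differed by -0.50 ± 0.18 (adjusted p = 0.245), H2-Eb1 by -0.62 ± 0.21 (adjusted p = 0.227) and H2-Ab1 by -0.30 ± 0.24 (adjusted p = 0.646). Intestinal epithelium and dendritic cells also make the classical chains. These genes lie close together and have related sequences, so probes may share signal.

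The letters of the Y box were found in some class II genes that fell and in some that did not pass. Shown are 80 bases around the Y box, a CCAAT element bound by the factor NF-Y that is part of the class II promoter module, read from the RefSeq promoter windows of build GRCm38.p6. Each is written 5′ to 3′ on the strand of its gene, with the letters TGATTGG in capitals.
H2-Eb2 (chr17:34325523-34325602, plus strand): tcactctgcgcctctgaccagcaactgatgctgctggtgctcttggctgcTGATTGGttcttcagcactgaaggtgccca
H2-Oa (chr17:34092284-34092363, plus strand): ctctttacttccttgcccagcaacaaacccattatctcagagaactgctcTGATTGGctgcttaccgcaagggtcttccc
H2-DMb2 (chr17:34145107-34145186, plus strand): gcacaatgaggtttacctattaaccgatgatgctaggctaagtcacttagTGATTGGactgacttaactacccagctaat
H2-Aa (chr17:34287844-34287923, minus strand): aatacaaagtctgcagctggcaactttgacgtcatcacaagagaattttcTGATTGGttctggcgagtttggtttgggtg
H2-Eb1 (chr17:34305756-34305835, plus strand): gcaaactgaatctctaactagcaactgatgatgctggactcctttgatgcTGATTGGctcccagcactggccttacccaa
The first 3 genes fell and the last 2 did not pass. TGATTGG, searched on both strands, stands in the windows of 7 of the 10 listed class II genes that have one, and in 7.82% of all 32851 windows.

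Elements named for B cell and inflammatory transcription were searched in the same windows. The octamer ATTTGCAT, searched on both strands, stood in 1.74% of all windows and in those of 1 of the 17 B cell genes with a window, Blnk, which fell by 0.92. The stretch is shown because it is the match in the B cell list, with the octamer in capitals.
Blnk (chr19:40994308-40994387, minus strand): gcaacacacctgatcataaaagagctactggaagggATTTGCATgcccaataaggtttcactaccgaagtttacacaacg
Among the 15 antimicrobial genes with a window, 1 held the octamer, Duoxa2. The consensus kappa B element stood in 0.155% of all windows, in those of 2 of the 16 follicle and homing genes, Ltb and Madcam1, in that of 1 of the 17 B cell genes, again Ltb, and in 0 of the 15 antimicrobial windows. A match is a description of letters only.

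Of 10 markers of M cells and the epithelium over follicles, 4 fell and 6 did not pass, beside 1.87% of all genes that fell. Gp2, the M cell receptor for bacterial fimbriae, read 5.44, 5.70, 5.68 and 5.41 in KD arrays 8, 10, 12 and 13, against 6.45, 6.54, 6.45 and 6.92 in NC arrays 9, 10, 11 and 12, a difference of -1.03 ± 0.11 (adjusted p = 0.000432). Spib, a transcription factor of M cells and of B cells, fell by 1.76 ± 0.22 (adjusted p = 0.000995). Pglyrp1, which encodes a peptidoglycan recognition protein, fell by 0.55 ± 0.12 (adjusted p = 0.0322) but, in contrast to Gp2 and Spib, did not follow lymphoid RNA in the other arrays (r = -0.32, against 0.97 and 0.96 over 16 arrays). Pglyrp1 lost the threshold without KD array 8, 10 or 12 or NC array 10, 11 or 12 (adjusted p up to 0.102), and Ccl20 is given above. The endothelial adhesion gene Pecam1, which lymphocytes also express, fell by 0.71 ± 0.10 (adjusted p = 0.00166), the single call among 11 endothelial genes.

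To separate lymphoid from epithelial genes without the 8 arrays compared, each gene was placed by its Pearson correlation over the other 16 gut arrays, taken as deviations from their group means. The lymphoid score was the mean of the B and T cell lists and the epithelial score the mean of the enterocyte list, and an r of at least 0.7 placed a gene. Of 612 lymphoid-tracking genes, 312 fell (51%, beside 1.87% of all genes) and 0 rose, with a median of -0.408. Of 946 epithelial-tracking genes, 4 fell (0.423%) and 23 rose (2.43%), with a median of 0.055. Of 19144 genes in neither class, 71 fell (0.371%) and 43 rose (0.225%). Lymphoid-tracking genes thus made up 80.6% of the decreases and 0% of the increases, beside 2.96% of all genes. The class includes genes that make up the score itself: 21 of the 22 B cell and 15 of the 21 T cell genes. These correlations share arrays and lymphoid RNA varies widely among them, so they describe which genes go together in this tissue.

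**Figure D3:**
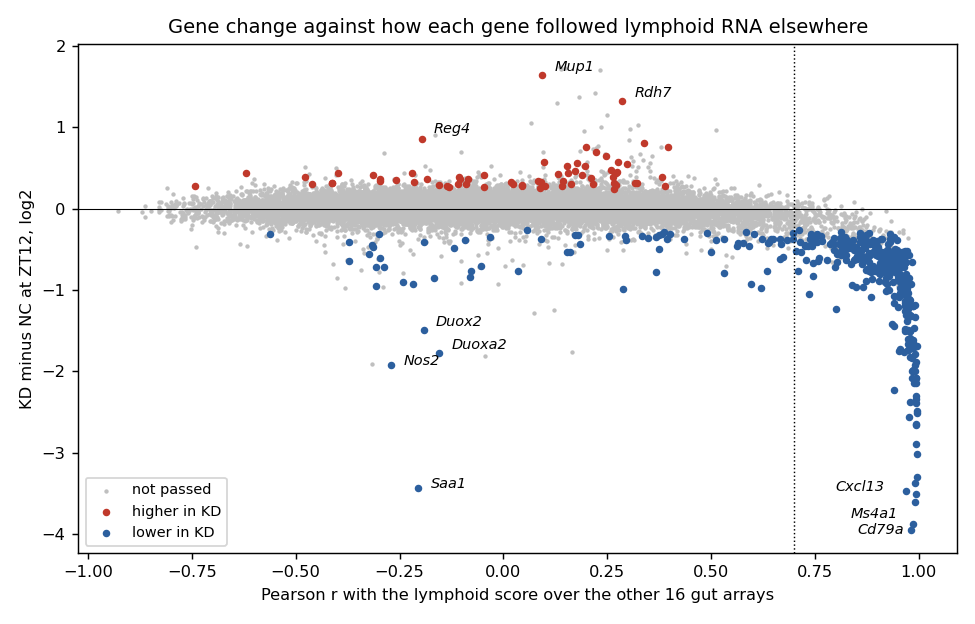
Difference of each of 20702 genes between KD and NC gut arrays at ZT12 (y axis, log2) against its Pearson r with the lymphoid score over the other 16 gut arrays (x axis). Coloured points passed an adjusted p of 0.05, and the dotted line marks r = 0.7; most decreases lie to its right, reaching -3.94 for Cd79a, while Saa1 (-3.43), Nos2, Duoxa2 and Duox2 lie apart at r below 0.

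A second set of decreases lay outside the lymphoid-tracking class and included epithelial antimicrobial genes. Of 18 Paneth cell and antimicrobial genes, 6 fell and 1 rose, beside 1.87% and 0.319% of all genes. The 7 calls became 3 with an offset of 1 in place of 16 and 1 with an intensity trend and robust prior. Saa1, serum amyloid A, an epithelial and hepatic acute-phase protein, read 5.87, 5.39, 6.92 and 5.52 in KD arrays 8, 10, 12 and 13, against 8.76, 9.14, 9.01 and 10.51 in NC arrays 9, 10, 11 and 12. The groups did not overlap, and Saa1 fell by 3.43 ± 0.38 (adjusted p = 0.0005), or 10.8-fold. Its neighbour Saa2 was 6.61 ± 0.07 in KD arrays and 6.80 ± 0.16 in NC arrays and did not pass (adjusted p = 0.362). The sequences of Saa1 and Saa2 are closely alike, so their probes may share signal.

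The dual oxidase and its partner fell together. Duox2 read 8.81, 9.09, 9.30 and 8.83 in KD arrays 8, 10, 12 and 13, against 10.20, 10.20, 10.28 and 11.32 in NC arrays 9, 10, 11 and 12, a difference of -1.49 ± 0.22 (adjusted p = 0.00373). Duoxa2, the maturation factor that DUOX2 needs, was 8.07 ± 0.27 in KD arrays and 9.85 ± 1.02 in NC arrays (-1.77 ± 0.39, adjusted p = 0.0376). In both, NC array 12 was the highest and no KD array reached any NC array. The 2 genes lie head to head on chromosome 2, with RefSeq starts at 122298227 (Duox2, minus strand) and 122298900 (Duoxa2, plus strand) in GRCm38.p6, 673 bases apart. Nos2, inducible nitric oxide synthase, read 8.02, 7.90, 9.46 and 9.63 in KD arrays, against 11.16, 10.14, 10.19 and 11.22 in NC arrays, and fell by 1.93 ± 0.40 (adjusted p = 0.0294). Cyba, a subunit of NADPH oxidases that is outside the list and was named after its values were seen, fell by 0.99 ± 0.19 (adjusted p = 0.0216).

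Secreted lectins were bright in both groups and fell by less. Reg3g, a lectin that kills Gram-positive bacteria, read 12.11, 11.75, 12.76 and 12.30 in KD arrays 8, 10, 12 and 13, against 13.11, 13.23, 13.12 and 13.26 in NC arrays 9, 10, 11 and 12. All KD arrays lay below all NC arrays, and the difference was -0.95 ± 0.16 (adjusted p = 0.00955). Reg3b read between 12.59 and 13.49 in KD arrays and between 13.63 and 13.68 in NC arrays (-0.64 ± 0.14, adjusted p = 0.044). Dmbt1, a scavenger protein of mucosal surfaces that is also outside the list and was named in the same way, fell by 0.90 ± 0.13 (adjusted p = 0.00254). Reg4, a related lectin of secretory cells, went the other way: it read 10.26, 10.31, 9.81 and 10.29 in KD arrays, against 9.58, 9.36, 9.64 and 8.69 in NC arrays, and rose by 0.85 ± 0.19 (adjusted p = 0.0383). REG3 genes are near copies of each other, and probes may not separate them. Paneth cell products other than these did not pass: Lyz1 (lysozyme) differed by 0.16 ± 0.09, Defa24 (an alpha-defensin) by 0.11 ± 0.07, Ang4 by 0.24 ± 0.18 and Mmp7 by -0.08 ± 0.12.

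**Figure D4:**
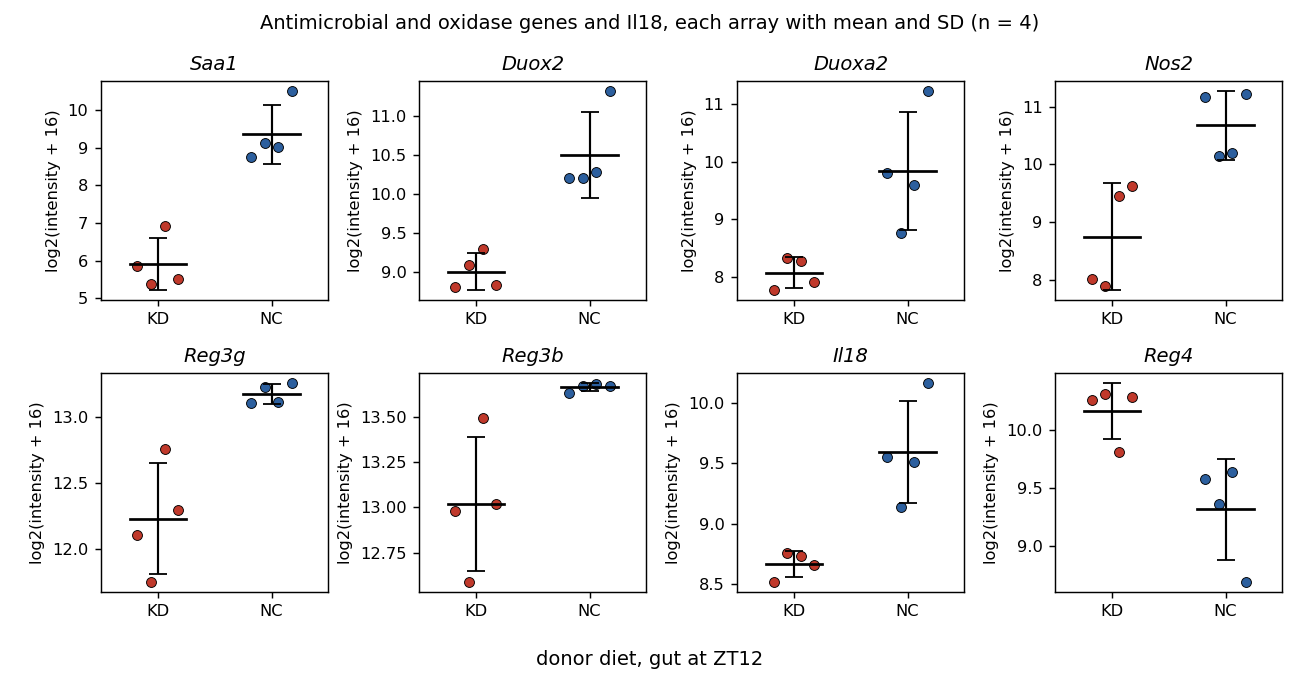
Level in log2(intensity + 16) of 7 antimicrobial and oxidase genes and of Il18 in KD (left) and NC (right) gut arrays at ZT12; points are arrays, lines are means and bars are SD (n = 4). The KD arrays lie below the NC arrays in every panel but that of Reg4, where they lie above; for Saa1 the highest KD value is 6.92 and the lowest NC value 8.76.

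Over the other 16 gut arrays Cyba had r = 0.29 with lymphoid RNA. The genes Saa1, Duox2, Duoxa2, Nos2 and Reg3g had r below 0 with it. Their r with the lymphoid score was -0.21 for Saa1, -0.19 for Duox2, -0.16 for Duoxa2, -0.27 for Nos2 and -0.31 for Reg3g, and their r with the enterocyte score was -0.79, -0.78, -0.77, -0.62 and -0.83 in the same order. Their levels varied widely within the other groups too. Saa1 read 5.49, 10.80, 11.39 and 5.40 in HF arrays 8, 9, 10 and 12 at ZT12, between 4.31 and 9.39 in KD arrays at ZT0 and between 5.21 and 9.56 in NC arrays at ZT0. With the lymphoid score as a covariate in the fit of all 24 gut arrays, the estimates were -4.39 for Saa1, -1.79 for Duox2, -2.38 for Nos2 and -1.36 for Reg3g, and did not pass (adjusted p = 0.79 for each). In the same fit Cd79a was at -0.26, Ms4a1 at -0.14 and Cxcl13 at -0.58, and they did not pass either. Cd79a and Ms4a1 are part of the score, so the fit removes their change by design. Cxcl13 is not part of it but followed it closely (r = 0.97 over the other 16 gut arrays). The fit therefore cannot compare these 3 genes with the antimicrobial genes. Without the covariate, the genes of both sets did not pass in 24 arrays either. Their adjusted p was then 0.424 for Saa1, 0.302 for Duox2, 0.138 for Nos2, 0.412 for Reg3g and 0.111 for Cd79a, Ms4a1 and Cxcl13. With the same covariate in the 8 arrays, where it and the group cannot be told apart, Saa1 was at -0.089, Nos2 at -1.73, Reg3g at -0.32, Duox2 at 0.34, Cyba at 0.65 and Reg4 at -0.87, and none of them passed. The part of lymphoid RNA in these decreases was not tested beyond these fits. Saa1, Duox2, Reg3g and Dmbt1 passed whichever array was left out. Nos2 did not pass without KD array 8 or 10 or NC array 9 or 12 (adjusted p up to 0.0984), Duoxa2 without any 1 KD array or NC array 9 or 11 (up to 0.123), Reg4 without KD array 8, 10 or 13 or NC array 10 (up to 0.122), Cyba without KD array 8 or 10 or NC array 10 (up to 0.0738), and Reg3b in any fit but that without KD array 12 (up to 0.125). The 7 calls in the list became 3 without KD array 8 or 10 and 4 without KD array 13 or NC array 9.

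Genes that sense bacteria and signal through NF-kB fell in 5 of 20 cases, beside 1.87% of all genes, and none rose. Il18, an epithelial cytokine, read 8.52, 8.76, 8.73 and 8.66 in KD arrays 8, 10, 12 and 13, against 9.55, 9.14, 9.51 and 10.16 in NC arrays 9, 10, 11 and 12, and fell by 0.93 ± 0.17 (adjusted p = 0.0136). It did not pass without KD array 8 (adjusted p = 0.0573). Nfkbiz, an inducible NF-kB regulator of epithelium, fell by 0.70 ± 0.14 (adjusted p = 0.0218), and not without KD array 8, 10 or 12 or NC array 11 (up to 0.0827). A pair of regulators of inflammation outside the list, named after their values were seen, fell as well: Casp4, the caspase that senses cytosolic lipopolysaccharide, by 0.77 ± 0.13 (adjusted p = 0.00739), and Zc3h12a, which encodes an mRNA-degrading brake on inflammation, by 0.84 ± 0.19 (adjusted p = 0.0394). Zc3h12a did not pass without KD array 8, 10 or 12 or NC array 9 or 12 (up to 0.128). The other 3 calls were Tlr9 (-0.65 ± 0.11, adjusted p = 0.00807), the receptor for bacterial DNA, Tnf (-0.49 ± 0.08, adjusted p = 0.00455) and Nfkbid (-0.61 ± 0.07, adjusted p = 0.000775), a nuclear inhibitor of NF-kB that acts in lymphocytes. Tlr9 and Nfkbid followed lymphoid RNA in the other arrays (r = 0.96 and 0.86), Tnf less so (r = 0.38), and Il18 and Nfkbiz did not (r = -0.22 and -0.06). The membrane receptor gene Tlr4, at 6.39 ± 0.06 in KD arrays and 6.41 ± 0.07 in NC arrays, did not pass (adjusted p = 0.943), nor did the inflammasome gene Nlrp6 (0.11 ± 0.06, adjusted p = 0.506).

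Nfkbid was the gene that passed in the fit of all 24 gut arrays (-0.61, adjusted p = 0.00634). With the lymphoid score as a covariate in that fit, Nfkbid was at -0.375 and did not pass (adjusted p = 0.712). It read 6.07, 6.00, 5.86 and 5.91 in KD arrays 8, 10, 12 and 13 at ZT12, against 6.45, 6.63, 6.51 and 6.69 in NC arrays 9, 10, 11 and 12. Its levels in the 3 groups at ZT0 lay between 6.29 and 6.72, and HF arrays 8, 9, 10 and 12 at ZT12 read 6.14, 5.98, 6.30 and 6.06. The KD arrays at ZT12 thus lay below every array of ZT0 and overlapped those of HF recipients at ZT12, with KD arrays 12 and 13 below all HF arrays, while the NC arrays lay within the range of ZT0.

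The increases with the highest differences included retinoid and cytochrome P450 genes. Of 21 xenobiotic metabolism genes 1 rose, Cyp2d26, beside 0.319% of all genes, and of the 66 increases 43 lay in neither class. Rdh7, a retinol dehydrogenase, read 9.05, 9.25, 8.09 and 8.29 in KD arrays 8, 10, 12 and 13, against 7.79, 7.30, 6.67 and 7.63 in NC arrays 9, 10, 11 and 12, and rose by 1.32 ± 0.28 (adjusted p = 0.0306), or 2.5-fold. Retsat, which saturates retinol, rose by 0.76 ± 0.12 (adjusted p = 0.00549). Cytochrome P450 genes that rose were Cyp4f16 (0.65 ± 0.11, adjusted p = 0.00891), Cyp2d26 (0.58 ± 0.09, adjusted p = 0.00455), Cyp2d11 (0.56 ± 0.10, adjusted p = 0.0109), Cyp2j6 (0.55 ± 0.13, adjusted p = 0.0466) and Cyp2j13 (0.53 ± 0.11, adjusted p = 0.0294). The Cyp2d and Cyp2j genes belong to clusters of close paralogues, so the rise may be of fewer genes than named. Aqp1, a water channel, rose by 0.52 ± 0.11 and the aldehyde dehydrogenase gene Aldh1a7 by 0.47 ± 0.08. Rdh7, Retsat, Aqp1 and the 5 P450 genes followed the enterocyte score in the other 16 arrays, with r between 0.795 for Cyp2j13 and 0.90 for Cyp2j6. Retsat, Cyp4f16, Cyp2d26, Cyp2d11 and Aldh1a7 passed whichever array was left out. Rdh7 did not without KD array 8 or 10 or NC array 10, 11 or 12 (adjusted p up to 0.107), nor Cyp2j13 without the same arrays (up to 0.102); Aqp1 passed only without NC array 9 (otherwise up to 0.0793) and Cyp2j6 only without KD array 13 (otherwise up to 0.141).

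Fatty acid oxidation genes rose in 2 of 18 cases, beside 0.319% of all genes, and none fell. Acaa2, the last enzyme of mitochondrial beta-oxidation, read 10.12, 10.12, 10.10 and 10.21 in KD arrays 8, 10, 12 and 13, against 9.83, 9.82, 9.68 and 9.56 in NC arrays 9, 10, 11 and 12, and rose by 0.42 ± 0.07 (adjusted p = 0.00987). Ehhadh, the peroxisomal bifunctional enzyme, rose by 0.31 ± 0.06 (adjusted p = 0.0236), but passed only without KD array 13 or NC array 9 when 1 array was left out (otherwise up to 0.0824). Outside the list, and named after their values were seen, the peroxisomal genes Hsd17b4 (0.44, adjusted p = 0.00131) and Cat (0.34, adjusted p = 0.0252) and the acyl-CoA dehydrogenase genes Acads (0.28, adjusted p = 0.0376) and Acadvl (0.28, adjusted p = 0.0371) rose by small amounts. Hsd17b4 passed whichever array was left out, Cat only without KD array 10 or NC array 11 (otherwise up to 0.0835), Acads only without NC array 10 (otherwise up to 0.118) and Acadvl only without NC array 9 (otherwise up to 0.114). Cpt1a, which admits fatty acids to mitochondria, differed by 0.20 ± 0.07 and did not pass (adjusted p = 0.228). Of 24 cholesterol synthesis genes, 23 had a difference above 0, with a median of 0.187, and 1 rose. Over all 20702 genes 9194 had a difference below 0, and the median was 0.015.

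Transcripts typical of liver stood among the increases and varied strongly within groups. Mup1, a major urinary protein gene, read 7.96, 8.84, 8.69 and 8.34 in KD arrays 8, 10, 12 and 13, against 8.12, 6.44, 6.64 and 6.07 in NC arrays 9, 10, 11 and 12. NC array 9 lay within the KD range, and Mup1 rose by 1.64 ± 0.36 (adjusted p = 0.0376). The protease inhibitor genes Serpina1a, Serpina1b and Serpina1e rose by 0.81, 0.70 and 0.76 (adjusted p = 0.0387, 0.0294 and 0.0476), and the haemoglobin scavenger gene Hp by 0.57 (adjusted p = 0.0409). Alb (albumin), looked at after these values were seen, moved with them without passing: it read 9.08, 9.81, 8.47 and 8.33 in KD arrays and 8.90, 6.85, 6.75 and 6.36 in NC arrays (adjusted p = 0.125). Mup1 and Alb ranged up to 11.66 and 11.81 in NC array 1 at ZT0. The part of a trace of liver RNA in these calls, or in the retinoid and P450 increases given above, was not tested. Mup and Serpina1 genes are near-identical families, so the members cannot be told apart with certainty. When 1 array was left out, Mup1 passed only without NC array 9 (adjusted p = 0.000118, otherwise up to 0.112), and Hp only without KD array 8 or NC array 9 (otherwise up to 0.114). Serpina1a passed only without KD array 12 or NC array 9 (otherwise up to 0.125), Serpina1e only without NC array 9 or 11 (otherwise up to 0.146), and Serpina1b only without KD array 12 or NC array 9, 11 or 12 (otherwise up to 0.103).

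**Figure D5:**
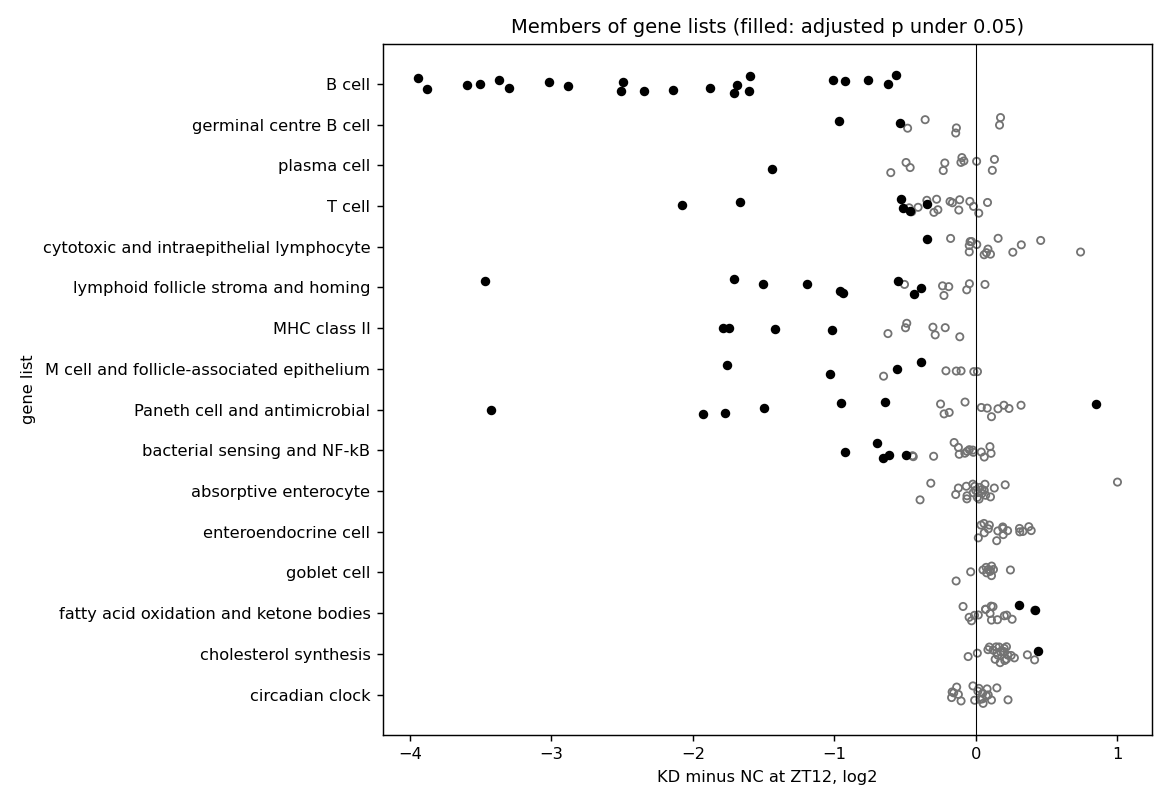
Difference between KD and NC gut arrays at ZT12 (x axis, log2) of each measured member of 16 gene lists (y axis); filled points passed an adjusted p of 0.05 over all genes. All 22 B cell genes are filled and lie left of 0, the antimicrobial list holds 6 filled points to the left and 1 to the right, and the enterocyte, enteroendocrine, goblet and clock lists hold no filled point.

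Most epithelial and metabolic lists showed no call in limma. Of 24 enterocyte genes 0 passed, and Sis (sucrase-isomaltase) averaged 13.27 ± 0.05 in KD arrays and 13.29 ± 0.06 in NC arrays. Goblet (12), tuft (10) and stem cell (12) genes, tight junction genes (17) and lipogenesis genes (14) also had 0 calls in limma, with medians of 0.096, 0.057, 0.141, 0.051 and 0.101. All 17 enteroendocrine genes had a difference above 0, with a median of 0.192, but 0 passed in limma. Over all 20702 genes 9194 had a difference below 0, and the median was 0.015. Chgb, which encodes a granin of their secretory granules, came closest (0.38 ± 0.10, adjusted p = 0.11). Fgf15, the ileal hormone that reports bile acid uptake to the liver, read 11.35, 10.55, 11.19 and 11.60 in KD arrays 8, 10, 12 and 13, against values between 9.05 (NC array 12) and 10.86 (NC array 11) in NC arrays. KD array 10 lay inside the NC range, and the difference of 1.06 ± 0.33 did not pass (adjusted p = 0.178). Its bile acid partners stayed close: Slc10a2, the ileal uptake transporter, averaged 12.11 ± 0.30 in KD arrays and 12.14 ± 0.19 in NC arrays.

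Clock genes and PPARγ, which the series title names for liver, did not pass in this gut comparison. Of 20 clock genes 0 passed in limma, with differences between -0.17 and 0.23 and a median of 0.027. Per2 averaged 9.09 ± 0.13 in KD arrays and 9.26 ± 0.21 in NC arrays, and the clock output gene Dbp 10.03 ± 0.12 in KD arrays and 9.996 ± 0.135 in NC arrays. Pparg averaged 7.58 ± 0.26 in KD arrays and 7.62 ± 0.20 in NC arrays (-0.04 ± 0.13, adjusted p = 0.932), and of 18 PPARγ and lipid storage genes 0 passed in limma, with a median of 0.129.

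The donor difference was set against that at ZT0 and against HF donors at ZT12. The counts here come from the fit of all 24 gut arrays, not from that of the 8. With all 24 arrays, 1 gene passed between KD and NC at ZT12 (1968 at an unadjusted p under 0.05, 9.51%). At ZT0, 0 genes passed between KD and NC in limma (784 at an unadjusted p under 0.05, 3.79%), and the median of the B cell list was 0.452. Cd79a differed by 0.70 at ZT0, where both groups held arrays high and low in B cell RNA. The change of the KD difference from ZT0 to ZT12 was tested directly: it passed for 1 of 20702 genes (0.00483%), Olfr192, and for 0 of the 22 B cell genes in limma (adjusted p = 0.468 for Cd79a), with 1376 genes at an unadjusted p under 0.05 (6.65%). Between KD and HF recipients at ZT12, 0 genes passed in limma (756 at an unadjusted p under 0.05, 3.65%), and between HF and NC recipients 0 passed as well (1943 at an unadjusted p under 0.05, 9.39%). HF and KD comparisons share the NC arrays. The HF difference from NC had a B cell median of -1.79, beside -2.24 for KD, and Saa1 differed by -1.09 with HF and by -3.43 with KD donors.

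The authors' deposited table gives its own p-values for the same 8 arrays. Adjusted here over the same genes, they passed for 448 genes with a ratio of KD to NC under 1 (2.16%) and for 164 with a ratio over 1 (0.792%). Of the named genes, 27 passed by the authors' p-values alone, and 5 of the 90 called in limma did not pass by them. Fgf15, Gzma, Chgb, Alb and Gzmb, given above as not passed, were among the 27 (authors' p-values, adjusted, 0.0049, 0.0177, 0.0249, 0.0263 and 0.0401). Among the lowest p-values in the authors' deposited table were those of Ifi209 (1.2e-13), Ltb (1.3e-11), Ly6d (3.77e-11) and Lcp1 (8.15e-11), with ratios of KD to NC means of 0.148, 0.269, 0.152 and 0.341. The same 4 genes fell in the limma fit; Ifi209 differed by -2.38 and Ly6d by -2.56, and Lcp1 averaged 8.34 in KD arrays and 9.84 in NC arrays. Ifi209 is an interferon-inducible gene of the HIN-200 family, Ly6d a surface marker of B cell progenitors and some epithelia, and Lcp1 the actin-bundling protein of leukocytes. Ifi209, Ly6d and Lcp1 followed lymphoid RNA in the other 16 gut arrays (r = 0.98 for each). Of 20 interferon-stimulated genes 0 passed in limma, with a median of -0.053. Cd180, a Toll-like receptor relative of B cells, fell by 2.65 ± 0.20 (adjusted p = 2.6e-05).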

How the data were processed

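RNA of 24 gut samples was measured on expression arrays. The authors deposited linear intensity per transcript cluster, which the submitters' processing notes credit to PLIER without a version. The authors' deposited comparison table holds the same intensity values, a p-value per cluster and a ratio of group means, and no label names the tool behind that p-value. No probe background, saturation or scan batch is given, and 24 liver columns were not used. Of 35556 clusters, 23811 carry a symbol, brought up to date by RefSeq accession (22722), current symbol (691) or older name (108); 290 kept the authors' symbol. Of several clusters of a gene, that with the highest mean over the gut arrays was kept, which left 20702 genes.

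Here log2(intensity + 16) was quantile normalised over the 24 gut arrays and the 8 arrays were fitted with limma 3.58.1 in R 4.3.3 (lmFit, eBayes, two-sided, Benjamini-Hochberg over all genes, threshold 0.05), after a check on simulated data. Gene lists (42) are described by counts and medians. The difference tests used all 24 gut arrays. Genes named are the 15 highest and 15 lowest calls, up to 4 members of each list with an unadjusted p under 0.05, all B cell, ileal and clock genes and Pparg, the 3 brightest antigen receptor genes, and the 5 lowest p-values of the authors' deposited table; predicted genes, small RNAs, olfactory and antigen receptors were passed over in the first. Other genes, among them Duoxa2, Reg3b, Nfkbiz, Saa2, Ighg, Lta, Ccl19, Madcam1, Ccr6, Il7r, Lef1, Cd3e, the classical class II chains and those given as not passed, were named after their values were seen. Members, lists and tests were chosen with earlier results of these data known. Python 3.11.15, pandas 2.3.3, numpy 2.4.6 and matplotlib 3.10.9 prepared tables and figures. Alternatives were no quantile step, quantile over 8 arrays, an offset of 1, a minimum mean of 6, all 24 arrays, an intensity trend with robust prior, array weights, all clusters, a lymphoid covariate, a replicate block, the authors' p-values, an r of 0.5, and leaving out each array. Some genes that this rule names are not reported here, though list counts include them.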

Additional observations from a re-analysis of the deposited data

Results flagged for a closer look

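In 19 of 446 groups of 4 arrays (223 genes in KD and NC arrays), 1 array lay far from the other 3 by Dixon's criterion, a share that chance alone can give at a level of 0.05. Among called genes, KD array 10 read 7.17 for Fcmr (others 6.75 to 6.79) and 6.49 for Cd79b (others 7.15 to 7.25). KD array 8 read 7.81 for Clu (others 8.43 to 8.51) and 8.82 for Ighg (others 9.08 to 9.12). KD array 12 read 6.67 for Cd8b1 (others 6.83 to 6.85) and 9.81 for Reg4 (others 10.26 to 10.31). NC array 12 read 11.32 for Duox2 (others 10.20 to 10.28), 7.65 for Bcl6 (others 7.39 to 7.44) and 7.27 for Cd4 (others 6.98 to 7.03), and NC array 9 read 7.64 for Ifi209 (others 8.09 to 8.18).

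Among genes that did not pass, KD array 10 stood apart for Ubd (5.50), Slc51b (12.25) and Serpina1d (7.21), KD array 8 for Myd88 (8.73) and KD array 12 for Slc6a20a (12.04). NC array 9 stood apart for Per2 (9.57), Sox9 (8.40) and Apoa2 (7.37), and NC array 11 for Cybrd1 (6.73).

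For the olfactory receptor gene Olfr192 the KD difference was 0.45 at ZT12 and -0.45 at ZT0. The change between the times, 0.90, passed the test of the difference in limma (adjusted p = 0.0225). It did not pass with the lymphoid score as covariate, nor without KD array 8, 12 or 13 or NC array 11 or 12 at ZT12. Nor did it pass without KD array 1, 4 or 6 or NC array 1, 3 or 4 at ZT0.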

How the results depend on the processing

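The 453 genes became 1 with all 24 gut arrays, 0 with the lymphoid score as a covariate in 8 or in 24 arrays (1316 and 1254 at an unadjusted p under 0.05), 24 with the replicate block over 24 arrays, and between 270 and 537 when 1 array was left out. The 22 B cell calls became 0 with all 24 arrays, 0 with either covariate, 3 with the replicate block and 20 to 22 without 1 array. These 22 genes are part of the score used as covariate, so the covariate removes their change by design. The 7 antimicrobial calls became 3 with an offset of 1, 1 with an intensity trend and robust prior, 0 with all 24 arrays, either covariate or the replicate block, and 3 to 6 without 1 array. The change between ZT0 and ZT12 passed for 1 gene, for 0 with the covariate, for 149 with the replicate block (148 lower) and for 0 or 1 without 1 array. KD against HF had 0 calls in limma under the covariate, the block and without 1 array (630 to 901 at an unadjusted p under 0.05). The other settings gave between 342 and 612 calls. The labels do not say what arrays of equal number share. Between KD and NC arrays at ZT12, deviations from group means correlated at -0.185 for number 10 and -0.103 for number 12. The mean for different numbers was 0.021.

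The lymphoid score includes the B and T cell list genes themselves. Group and lymphoid score cannot be told apart in the 8 arrays. With that covariate there, 31 of 90 called genes changed sign: Cd37 0.29, Cd22 0.72, Cd72 0.76, Spib 1.07, H2-Oa 0.70, Fcrl1 0.53, Ebf1 0.90, Pou2af1 0.27, Mfge8 0.58, Duox2 0.34, Irf4 0.14, H2-DMb2 1.51, Ciita 0.12, Tnfrsf13c 0.48, Cyba 0.65, Il21r 0.011, Blnk 0.065, Blk 0.22, Tlr9 0.49, Bcl11a 0.69, Pglyrp1 0.48, Cd4 0.003, Car4 0.094, Aldh3a2 -0.24, Tmem97 -0.13, Aqp1 -0.25, Serpina1b -0.46, Serpina1e -0.87, Serpina1a -1.03, Reg4 -0.87 and Mup1 -2.32. With it in 24 arrays 13 did: Cxcr5 0.017, Fcmr 0.11, Cd180 0.26, Cd79b 0.03, Cd22 0.064, H2-Eb2 0.028, Ebf1 0.01, Lcp1 0.024, H2-DMb2 0.29, Blk 0.084, Fcrla 0.15, Cd4 0.056 and Ccl19 0.049. Sign changes of genes that did not pass are not counted.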
